A study of Mus musculus with 7 samples.

Results

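The genes described here are 7 that carry out ketone body use and monocarboxylate transport: Bdh1, Bdh2, Oxct1, Acat1, Slc16a1, Slc16a3 and Slc16a7. They were taken by symbol from the deposited table of 53460 genes, and each symbol stood for 1 gene. RNA sequencing was carried out on hearts of C57BL/6 mice (C57BL/6Ncr in the treatment protocol, male C57BL/6NCrSlc in the paper's methods) that had undergone transverse aortic constriction (TAC), in which a narrowed aorta loads the left ventricle with pressure. Per the labels, TAC was performed at 12 weeks of age and the hearts came from mice 14 weeks old. A younger age at operation is given in the paper's methods. The TAC group (n = 3 libraries) received no drug, and the TAC + EMPA group (n = 4 libraries) received empagliflozin, an inhibitor of the renal glucose transporter SGLT2, mixed in chow for 5 days from 2 weeks after TAC. Both groups carried TAC, so the comparison asks what empagliflozin did in the pressure-loaded heart, and a heart without TAC is not part of it.

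Ketone bodies are made in the liver from fatty acids and burned elsewhere, above all in heart, muscle and brain. β-Hydroxybutyrate and acetoacetate, like lactate and pyruvate, cross the plasma membrane together with a proton through monocarboxylate transporters of the Slc16 family. Inside the mitochondrion, BDH1 oxidizes β-hydroxybutyrate to acetoacetate, the transferase encoded by Oxct1 (SCOT) activates acetoacetate with CoA taken from succinyl-CoA, and the thiolase encoded by Acat1 splits acetoacetyl-CoA into acetyl-CoA for the TCA cycle. SGLT2 inhibitors are known to raise circulating ketone bodies.

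The values are FPKM, fragments scaled by transcript length and by the size of the library, so levels of different genes in a library can be compared. A library had 20250 to 22956 genes with a value above 0. Total fragments are unknown, but the steps between low values gave a relative depth of 1 to 2.24, with TAC replicate 2 the shallowest and TAC replicate 1 and TAC + EMPA replicate 1 the deepest. TAC replicate 3 stood apart from its group: on the first principal component (46.8% of the variance) it lay at 16.1, against -45.7 and -56.0 for TAC replicates 1 and 2 and 18.9 to 24.3 for the TAC + EMPA libraries. The tested genes among the 7 are therefore given with and without this library, and what set it apart was not tested. It was singled out from these same values, so leaving it out widens the difference and narrows the spread of genes that follow this component. The fits without it rest on TAC replicates 1 and 2 alone in the TAC group and are no independent support. The 7 cardiomyocyte markers had a summed FPKM of 57473 to 70498 in the TAC group and 54272 to 62111 in the TAC + EMPA group. Myl2 made up the largest part, and Myh6 was listed at 0 in TAC + EMPA replicate 1, the library with the lowest sum. Single markers differed in direction. Ryr2 was at 23.7 to 82.2 in the TAC group and 102 to 117 in the TAC + EMPA group, while Tnni3 was at 9380 to 12857 and 9187 to 9532. The summed level of 7 endothelial markers was 225 to 415 in the TAC group, lowest in TAC replicate 3, and 197 to 208 in the TAC + EMPA group. Markers of liver and skeletal muscle, other users or makers of ketone bodies, were highest in TAC + EMPA replicate 4 (summed FPKM 72.8 and 345, against 3.16 to 13.1 and 4.61 to 12.5 in the other 6 libraries), although Apob, Serpina1a and Fgb of the liver list and Myh1, Myh2, Myh4 and Pvalb of the muscle list were at 0 in some libraries. The part of these cells in the results was not tested. In bulk tissue, fewer cells of a type and less RNA per cell cannot be told apart.

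Oxct1 and Slc16a1 had the largest log2 differences between the groups, and with Bdh1 they stand for the steps of activation, uptake and oxidation, so their upstream sequences are shown. RefSeq promoter windows of GRCm38.p6 were found for 5 of the 7 genes (6 windows, since Bdh1 has 2 starts), and Acat1 and Slc16a7 had none. The bases 250 to 51 before the start are printed, 5′ to 3′ on the plus strand, which is the coding strand of all 3 genes, with motif matches in capitals.
Oxct1, chr15:4026178-4026377: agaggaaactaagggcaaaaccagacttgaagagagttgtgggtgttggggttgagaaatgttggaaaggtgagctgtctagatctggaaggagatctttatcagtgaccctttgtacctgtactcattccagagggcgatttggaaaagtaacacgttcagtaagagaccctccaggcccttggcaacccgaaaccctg
Slc16a1, chr3:104638414-104638613: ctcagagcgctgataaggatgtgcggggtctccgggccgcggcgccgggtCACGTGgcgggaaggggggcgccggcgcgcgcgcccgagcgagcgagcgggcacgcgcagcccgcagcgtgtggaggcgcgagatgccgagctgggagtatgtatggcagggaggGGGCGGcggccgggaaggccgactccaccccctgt
Bdh1, first start, chr16:31422047-31422246: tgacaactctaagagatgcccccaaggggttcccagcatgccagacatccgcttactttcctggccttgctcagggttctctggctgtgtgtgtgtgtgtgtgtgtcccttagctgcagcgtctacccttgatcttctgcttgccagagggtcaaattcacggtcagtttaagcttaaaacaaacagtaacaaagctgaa
The Slc16a1 window held 76.0% G and C with 30 CpG dinucleotides. Those of Oxct1 and of the first Bdh1 start held 48.0% and 50.0% with 3 CpG each. The window of the second Bdh1 start, which is not printed, held 59.0% with 5 CpG. The median was 51.5% over 32851 windows of the same length. On both strands, 6 motifs were searched. The capitals in Slc16a1 are an E-box (CACGTG, present in 4.34% of all windows) that begins 200 bases before the start and a GC box (GGGCGG, in 24.6%) that begins 85 bases before it. The Bdh2 window held a CCAAT box (CCAAT, in 28.4% of all windows) on the minus strand. No match to the estrogen-related receptor element (TCAAGGTCA, in 0.323% of all windows), to the nuclear receptor AGGTCA site that lies within it (in 11.4%) or to a TATA box (TATAAA, in 9.14%) was found in the 6 windows. Bases nearer the start than 51 were not searched, so the windows cannot show whether a TATA box or another motif lies there.

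Oxct1, Slc16a1, Acat1 and Bdh1 had higher mean levels under empagliflozin (TAC + EMPA) than with TAC alone, and Slc16a3, Slc16a7 and Bdh2 had mean levels of 0.626 to 1.16 FPKM in both groups. The groups overlapped in all 7 genes. TAC replicate 3 lay within the range of the TAC + EMPA libraries for Oxct1, Slc16a1, Acat1 and Bdh1, above it for Slc16a7 and below it for Slc16a3 and Bdh2. The filter (mean FPKM of at least 1) was passed by 5 of the 7 genes; Slc16a7 and Bdh2 fell below it. In the limma fit over 12391 genes, none of the 5 passed an adjusted p of 0.05 in either direction, and 0% of all genes were higher and 0% lower at that threshold. With no adjustment (p under 0.05), Oxct1 and Slc16a1 were higher and none of the 5 was lower, against 19.0% of all genes higher and 14.7% lower. None of the 5 had groups that did not overlap, against 11.5% of all genes that were higher and 10.7% that were lower without overlap. The median log2 fold change of FPKM + 1 was 0.45 over the 5 genes and 0.03 over all genes. Without TAC replicate 3, Oxct1, Slc16a1 and Acat1 were higher at an adjusted p under 0.05 and none was lower, in a fit in which 29.8% of all genes were higher and 23.6% lower, so calls were frequent among all genes in that fit.

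**Figure D1:**
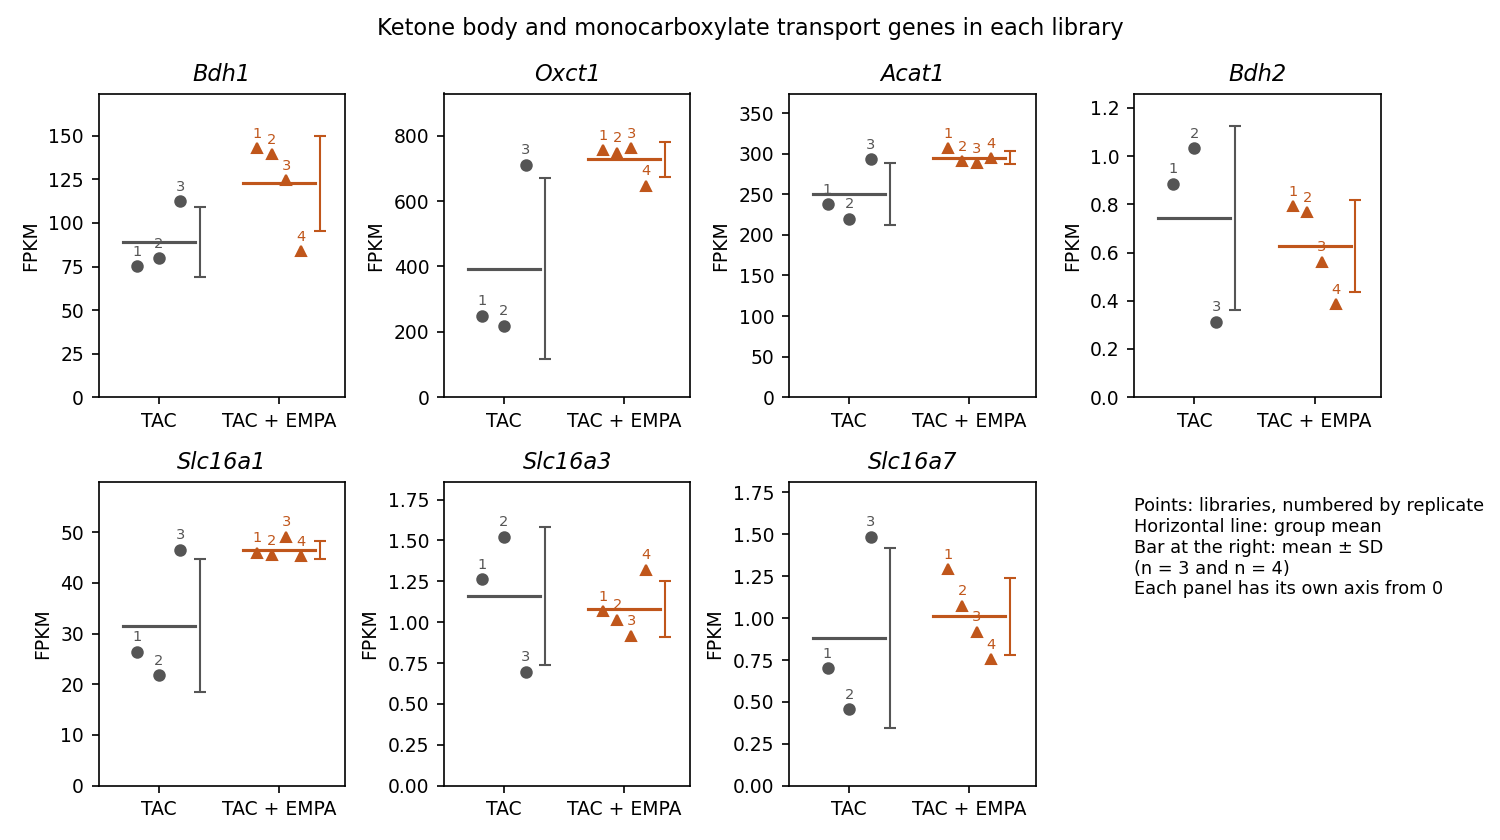
FPKM of each of the 7 genes (vertical axes from 0, one scale per panel) in the 3 TAC and 4 TAC + EMPA libraries, with points numbered by replicate, lines at the group means and bars of ± SD. For Oxct1, TAC replicates 1 and 2 lay at 249 and 219 and TAC replicate 3 at 711, beside 647 to 761 in the TAC + EMPA group.

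Oxct1, which encodes the CoA transferase that commits acetoacetate to oxidation and which liver cells lack, was the most abundant of the 7 genes and ranked 147 of 12391 by mean FPKM. Its FPKM was 249, 219 and 711 in TAC replicates 1 to 3, and 755, 747, 761 and 647 in TAC + EMPA replicates 1 to 4. TAC replicates 1 and 2 were low, and TAC replicate 3 lay above TAC + EMPA replicate 4. The group levels were 393 ± 276 (SD, n = 3) and 728 ± 54.1 (SD, n = 4), a ratio of means of 1.85. The log2 fold change of Oxct1 was 1.10 (standard error 0.38, 95% interval 0.20 to 1.99, limma, adjusted p = 0.118), and an exact permutation test over the 35 ways of dividing the libraries gave p = 0.0571, two-sided, where the smallest possible p is 0.0286. Without TAC replicate 3 the log2 fold change was 1.63 (standard error 0.09, limma, adjusted p = 0.000188). As TAC replicate 3 held the TAC value nearest the TAC + EMPA mean, leaving it out had to widen the difference. The gene (ENSMUSG00000022186) lies on the plus strand of chr15:4026383-4155344 in GRCm38. Its exons overlap those of BC037032 on the minus strand, which was listed at 0.582 to 2.75 FPKM, and whether strand was used in the counting is not stated in the sources used here. The locus deposited for Oxct1 starts earlier, at 4020114, where BC037032 starts.

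Acat1, the mitochondrial thiolase of the last step of ketone body oxidation, which also acts in isoleucine breakdown, showed a smaller difference. Its FPKM was 238, 220 and 293 in TAC replicates 1 to 3, and 307, 290, 289 and 294 in TAC + EMPA replicates 1 to 4. TAC replicates 1 and 2 were again the lowest, and TAC replicate 3 lay within the TAC + EMPA range. The means were 250 ± 38.1 (SD, n = 3) and 295 ± 8.14 (SD, n = 4). The difference for Acat1 was 0.25 on the log2 scale (standard error 0.12, 95% interval -0.03 to 0.52, limma, adjusted p = 0.182) and p = 0.0857 in the exact test. Without TAC replicate 3 the log2 fold change of Acat1 was 0.36 (limma, adjusted p = 0.00307). Acat1 (ENSMUSG00000032047) lies on the minus strand of chr9:53580522-53610382.

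Bdh1 encodes the inner membrane dehydrogenase that interconverts β-hydroxybutyrate and acetoacetate, the first step of ketone body use. Its FPKM was 75.2, 79.6 and 112 in TAC replicates 1 to 3, and 143, 139, 125 and 83.8 in TAC + EMPA replicates 1 to 4. Here the overlap came from both sides, since TAC replicate 3 was the highest TAC library and TAC + EMPA replicate 4 lay between the TAC libraries. The levels were 89.1 ± 20.3 (SD, n = 3) and 123 ± 27.1 (SD, n = 4), the log2 fold change was 0.45 (standard error 0.23, 95% interval -0.08 to 0.98, limma, adjusted p = 0.193), and the exact test gave p = 0.143. Without TAC replicate 3 the log2 fold change of Bdh1 was 0.63 (limma, adjusted p = 0.05002, just above the threshold). Without TAC + EMPA replicate 4 alone it was 0.62 (limma, adjusted p = 0.186), and without both libraries 0.80 (limma, adjusted p = 0.00143). Leaving out both was chosen after seeing the data, and it removes the libraries whose Bdh1 values made the groups overlap. In that fit 3761 genes were higher and 2957 lower at the adjusted threshold, so calls were frequent. TAC + EMPA replicate 4 was also the library with the highest liver and skeletal muscle markers. Whether these tissues affected its Bdh1 level was not tested. Bdh1 (ENSMUSG00000046598) lies on the plus strand of chr16:31422280-31458901, and the antisense gene Gm15743, which overlaps its exons, was listed at 3.11 to 8.25 FPKM.

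Bdh2, a cytosolic short-chain dehydrogenase named for the same reaction, was the least abundant of the 7 genes. Its FPKM was 0.886, 1.03 and 0.313 in TAC replicates 1 to 3, and 0.792, 0.767, 0.561 and 0.385 in TAC + EMPA replicates 1 to 4. The lowest value of all was that of TAC replicate 3, and the other 2 TAC libraries were the highest. The means of 0.744 ± 0.380 (SD, n = 3) and 0.626 ± 0.191 (SD, n = 4) differed by less than the spread (difference of -0.08 on the log2 scale of FPKM + 1, exact permutation test, p = 0.657), and in a fit without the filter the 95% interval was -0.50 to 0.34. These levels correspond to at most 29 to 163 fragments per library if all annotated exons were counted, which limits the precision of each value. Bdh1 exceeded Bdh2 by 77.1 to 359 times in FPKM within a library. Bdh2 (ENSMUSG00000028167) lies on the plus strand of chr3:135281221-135304426.

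Slc16a1 encodes MCT1, the widely expressed carrier through which heart muscle takes up lactate and ketone bodies. Its FPKM was 26.5, 21.8 and 46.5 in TAC replicates 1 to 3, and 46.0, 45.4, 49.1 and 45.3 in TAC + EMPA replicates 1 to 4. As for Oxct1, TAC replicates 1 and 2 were low, while TAC replicate 3 lay among the TAC + EMPA libraries. The means were 31.6 ± 13.1 (SD, n = 3) and 46.5 ± 1.80 (SD, n = 4), a ratio of 1.47. The log2 fold change of Slc16a1 was 0.61 (standard error 0.23, 95% interval 0.07 to 1.16, limma, adjusted p = 0.125), the exact test gave p = 0.114, and without TAC replicate 3 the log2 fold change was 0.92 (standard error 0.09, limma, adjusted p = 0.000509). Slc16a1 (ENSMUSG00000032902) lies on the plus strand of chr3:104638668-104658462.

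Slc16a3 encodes MCT4, the carrier known for lactate export from glycolytic cells. Its FPKM was 1.26, 1.52 and 0.698 in TAC replicates 1 to 3, and 1.07, 1.02, 0.918 and 1.32 in TAC + EMPA replicates 1 to 4. TAC replicates 2 and 3 held the highest and the lowest value, so the TAC range enclosed the TAC + EMPA range. The means of 1.16 ± 0.421 (SD, n = 3) and 1.08 ± 0.172 (SD, n = 4) gave a log2 fold change of -0.04 (standard error 0.17, 95% interval -0.43 to 0.35, limma, adjusted p = 0.875; exact test, p = 0.800), and without TAC replicate 3 it was -0.20 (limma, adjusted p = 0.203). Slc16a3 (ENSMUSG00000025161) lies on the plus strand of chr11:120948480-120960868.

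Slc16a7 encodes MCT2, a carrier of high affinity known best from neurons. Its FPKM was 0.700, 0.458 and 1.49 in TAC replicates 1 to 3, and 1.29, 1.07, 0.920 and 0.755 in TAC + EMPA replicates 1 to 4. TAC replicate 3 was the highest library and TAC replicates 1 and 2 were the lowest. The means of 0.881 ± 0.537 (SD, n = 3) and 1.01 ± 0.228 (SD, n = 4) differed by 0.13 on the log2 scale of FPKM + 1 (exact permutation test, p = 0.571), with a 95% interval of -0.35 to 0.60 in the fit without the filter. Slc16a7 (ENSMUSG00000020102) lies on the minus strand of chr10:125219270-125389465. The locus deposited for it extends to 125391007, the end of Gm47862 on the plus strand. Gm47862 overlaps the exons of Slc16a7 and was listed at 0 to 0.0191 FPKM.

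**Figure D2:**
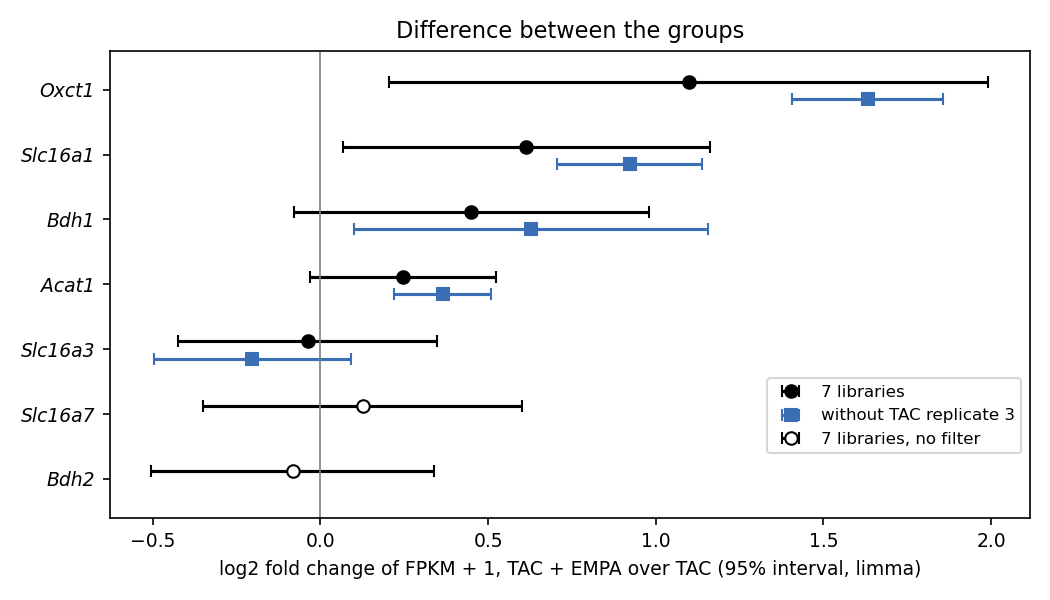
Log2 fold change of FPKM + 1 (TAC + EMPA over TAC, horizontal axis) with its 95% interval from limma for each gene, with all 7 libraries (black circles) and without TAC replicate 3 (blue squares), and open circles for the 2 genes tested only without the filter. The intervals of Oxct1 and Slc16a1 lay above 0 in both fits, and those of Bdh1 and Acat1 only without TAC replicate 3.

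In both groups the order of the mean levels was Oxct1, Acat1, Bdh1, Slc16a1, Slc16a3, Slc16a7 and Bdh2. Oxct1 and Acat1 overlapped in the TAC group, where Oxct1 was the higher in 2 of 3 libraries, and did not overlap in the TAC + EMPA group, where its mean was 2.47 times that of Acat1. Acat1 and Bdh1 did not overlap in either group, nor did Bdh1 and Slc16a1 or Slc16a1 and Slc16a3. Neighbours among Slc16a3, Slc16a7 and Bdh2 overlapped in both groups. Within a library, Slc16a7 was above Bdh2 in 1 of 3 TAC and 4 of 4 TAC + EMPA libraries. Slc16a3 was above Slc16a7 in 2 of 3 and 1 of 4, so the order of these genes over both groups is not resolved. Within the TAC + EMPA group the 4 libraries were tight for Acat1, Slc16a1 and Oxct1 (coefficients of variation 2.76%, 3.87% and 7.44%) and wider for Bdh1 (22.1%). Within the TAC group Oxct1 varied most, with a coefficient of variation of 70.2%, against 9.25% between TAC replicates 1 and 2.

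Slc16a1 made up nearly all of the transcript level of the 3 carriers. Its share of their summed FPKM was 93.1%, 91.7% and 95.5% in TAC replicates 1 to 3 and 95.1%, 95.6%, 96.4% and 95.6% in TAC + EMPA replicates 1 to 4. The share of Slc16a3 was 4.44%, 6.40% and 1.43% in the TAC libraries and 1.80% to 2.79% in the TAC + EMPA libraries, and that of Slc16a7 was 1.93% to 3.05% and 1.59% to 2.67%. TAC replicate 3 thus had the smallest Slc16a3 share of all libraries.

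Ratios within a library do not move with the scaling of that library, and they showed that the enzymes did not keep a fixed proportion. The FPKM of Acat1 relative to Oxct1 was 0.954, 1.01 and 0.412 in TAC replicates 1 to 3, and 0.406, 0.389, 0.379 and 0.455 in TAC + EMPA replicates 1 to 4. TAC replicates 1 and 2 thus held about equal levels of both, and in the other 5 libraries Acat1 was at 0.379 to 0.455 of Oxct1. Bdh1 relative to Oxct1 was 0.302, 0.364 and 0.158 in the TAC libraries and 0.189, 0.187, 0.164 and 0.129 in the TAC + EMPA libraries. The log2 ratios averaged -0.45 ± 0.72 (SD, n = 3) and -1.30 ± 0.12 (SD, n = 4) for Acat1 to Oxct1 and -1.95 ± 0.63 and -2.60 ± 0.25 for Bdh1 to Oxct1, and the groups overlapped in both. Slc16a1 relative to Slc16a3 was 20.97, 14.3 and 66.7 in the TAC libraries and 34.3 to 53.5 in the TAC + EMPA libraries, so TAC replicate 3 had the highest ratio and TAC replicates 1 and 2 the lowest. The log2 ratio of Slc16a1 to Bsg, which encodes basigin, the membrane partner that brings MCT1 and MCT4 to the cell surface, was -4.99, -5.30 and -4.22 in the TAC libraries and -4.46 to -4.25 in the TAC + EMPA libraries. With TAC replicate 3 left out, the difference between the group means (TAC + EMPA minus TAC) moved from -0.85 to -1.27 for Acat1 to Oxct1, from -0.65 to -1.002 for Bdh1 to Oxct1 and from 0.68 to 1.32 for Slc16a1 to Slc16a3. It moved from 0.50 to 0.80 for Slc16a1 to Bsg and from 0.59 to 1.30 for Bdh1 to Bdh2. For Slc16a1 to Slc16a7 the difference became smaller, from 0.29 to 0.14. These ratios are descriptions and were not tested.

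**Figure D3:**
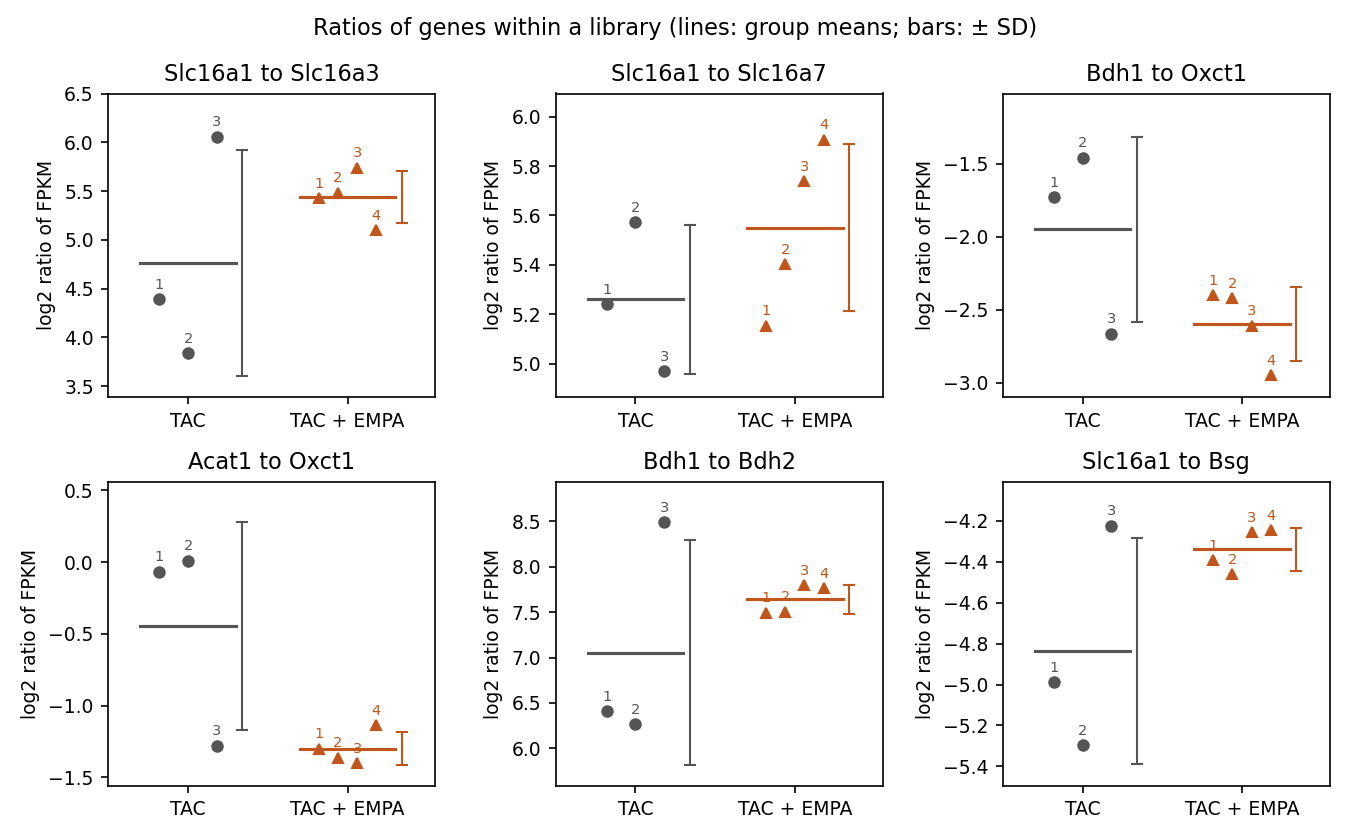
Log2 ratios of FPKM within each library (vertical axes, one scale per panel) for 6 gene pairs, with points numbered by replicate, lines at the group means and bars of ± SD. The groups overlapped in all 6 panels, and for Acat1 to Oxct1 TAC replicates 1 and 2 lay at -0.067 and 0.0088 and the other 5 libraries from -1.40 to -1.14.

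The other genes of the pathway were read by list. Of 6 genes for ketone body synthesis, 5 were tested, none had an unadjusted p under 0.05, and their median log2 fold change was -0.06 against 0.03 over all genes. Cpt1a, Acat2 and Acaa2 had log2 fold changes of -0.07 to -0.03.

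Of 6 other genes that activate acetoacetate or acetate, Aacs, Acss1 and Acss2 were tested, and all 3 were higher at an unadjusted p under 0.05 (19.0% of all genes were) and passed the adjusted threshold without TAC replicate 3 (29.8% of all genes did). Aacs, the cytosolic synthetase that activates acetoacetate for lipid synthesis, was the one in which TAC replicate 3 did not approach the TAC + EMPA group. Its FPKM was 5.26, 2.87 and 2.54 in TAC replicates 1 to 3 and 6.66, 6.58, 9.25 and 9.81 in TAC + EMPA replicates 1 to 4, and the groups did not overlap. The log2 fold change of Aacs was 1.02 (standard error 0.23, limma, adjusted p = 0.115), the exact test gave p = 0.0286, the smallest it allows, and without TAC replicate 3 the log2 fold change was 0.86 (limma, adjusted p = 0.0240). Acss1, the mitochondrial acetate activating enzyme, was at 49.5, 42.0 and 115 in the TAC libraries and 122 to 149 in the TAC + EMPA libraries. Oxct2a, the testis relative of Oxct1, was listed at 0 in 6 libraries.

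Of 13 other Slc16 and sodium-coupled carriers, 5 were tested, with 2 higher and 1 lower without adjustment (p under 0.05, against 19.0% and 14.7% of all genes) and a median log2 fold change of 0.47. At an adjusted p under 0.05, 3 were higher and 1 lower once TAC replicate 3 was left out, against 29.8% and 23.6% of all genes. Slc16a6, an orphan of the monocarboxylate transporter family whose zebrafish relative exports ketone bodies from liver, was at 2.29 ± 1.03 FPKM (SD, n = 3) with TAC alone and 4.81 ± 0.670 (SD, n = 4) with empagliflozin, without overlap (log2 fold change 0.86, limma, adjusted p = 0.115; 1.09 without TAC replicate 3, adjusted p = 0.00217). Bsg was abundant in both groups, at 855 ± 15.2 and 941 ± 60.1 (log2 fold change 0.14, limma, adjusted p = 0.311), and Emb, which encodes embigin, the partner of MCT2, was at 0.216 ± 0.0945 and 0.416 ± 0.152 (exact permutation test, p = 0.114). All 4 receptors for ketone bodies, lactate or short fatty acids were below the filter, and Hcar2, the β-hydroxybutyrate receptor, did not exceed 0.0641 in any library.

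Of 17 genes for lactate and pyruvate handling, 10 had an unadjusted p under 0.05, all of them higher (19.0% of all genes were), and 5 were higher without overlap (11.5% of all genes). Over the 17 genes the median log2 fold change was 0.59. When TAC replicate 3 was left out, 12 were higher and 2 lower at an adjusted p under 0.05, against 29.8% and 23.6% of all genes. Pdk4, the kinase that restrains pyruvate dehydrogenase, was at 148, 187 and 288 in the TAC libraries and 499, 460, 529 and 474 in the TAC + EMPA libraries (log2 fold change 1.29, standard error 0.21, limma, adjusted p = 0.115; 1.552 without TAC replicate 3, adjusted p = 0.000246). Ldha and Ldhb, the subunits of lactate dehydrogenase, had log2 fold changes of -0.09 (limma, adjusted p = 0.475) and -0.23 (adjusted p = 0.285), with Ldhb at 2154 ± 419 (SD, n = 3) and 1815 ± 89.6 (SD, n = 4). The pyruvate carrier subunits Mpc1 and Mpc2 had log2 fold changes of 0.15 (limma, adjusted p = 0.387) and -0.45 (adjusted p = 0.154). Ldhb and Mpc2 were the 2 that were lower without TAC replicate 3 (limma, adjusted p = 0.00265 and 0.0278).

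Of 6 genes for the entry of acetyl-CoA into the TCA cycle, 5 were higher without overlap, against 11.5% of all genes, and the median log2 fold change was 0.70. The margin over TAC replicate 3 was small, as for citrate synthase (Cs), at 434 in that library and at least 435 in the TAC + EMPA libraries. Suclg1, a subunit of the ligase that shares succinyl-CoA with the transferase of Oxct1, was the exception at 332 ± 49.3 FPKM (SD, n = 3) with TAC alone and 275 ± 17.1 (SD, n = 4) with empagliflozin (log2 fold change -0.26, limma, adjusted p = 0.186), and was lower without TAC replicate 3 (adjusted p = 0.00487). No gene of any of these lists passed the adjusted threshold with all 7 libraries, and the lists were read by counts only. With TAC replicate 3 left out, 5 of the 6 genes for TCA cycle entry passed as higher and Suclg1 as lower, against 29.8% and 23.6% of all genes.

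**Figure D4:**
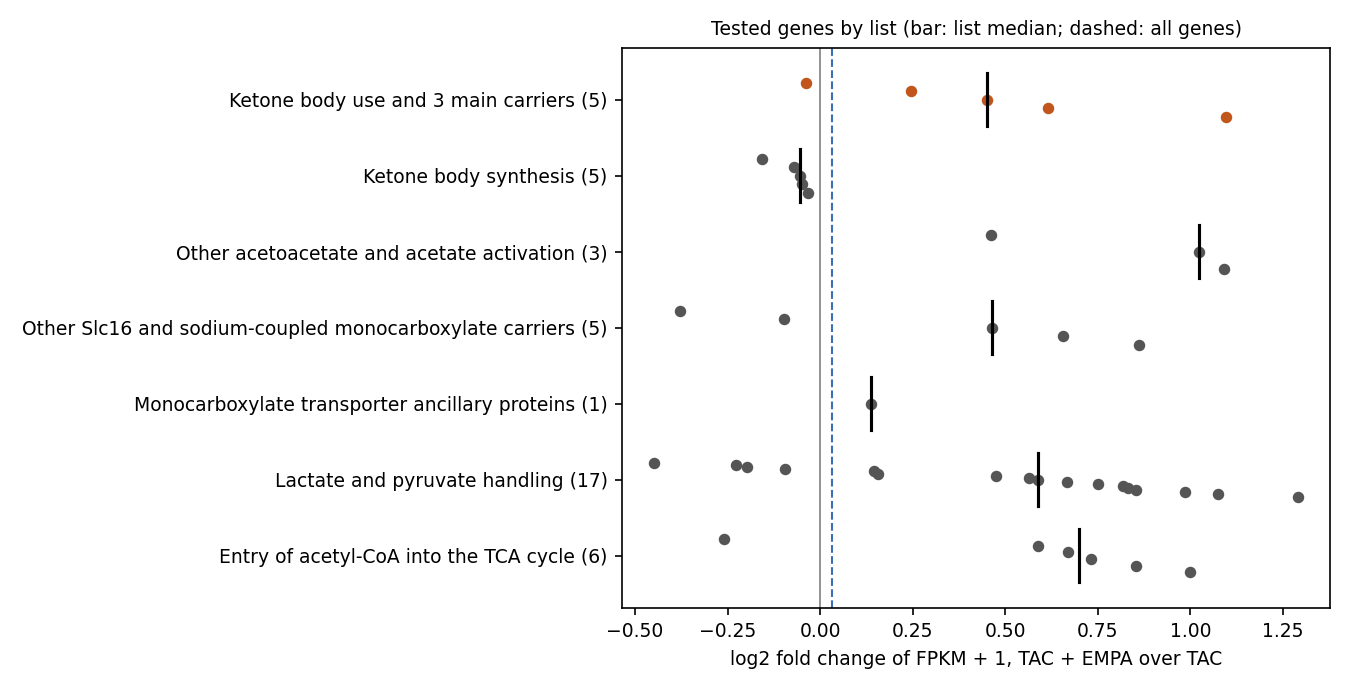
Log2 fold change of FPKM + 1 (TAC + EMPA over TAC, horizontal axis, 7 libraries) of each tested gene by list, with the number of tested genes in brackets, a bar at the list median and a dashed line at the median of all genes (0.03). The 5 tested genes of ketone body synthesis had a median of -0.06, and Oxct1 (1.10), Aacs (1.02) and Pdk4 (1.29) were among the highest.

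The genes whose log2(FPKM + 1) followed each of the 5 tested genes most closely over the 7 libraries were sought by Pearson r, as a description over libraries of which TAC replicates 1 and 2 stood apart on the first principal component. For Oxct1 they were Atp1b1 (r = 0.9997), Rad23b and Txnrd1 (both 0.999). For Slc16a1 they were Trim55 (0.9998), Mdh1 (0.999), the cytosolic malate dehydrogenase, and Vdac2 (0.999), a channel of the outer mitochondrial membrane. For Acat1 they were Taf1a, Rnf170 and E2f6 (0.995 to 0.997), for Bdh1 Pdap1, Ctsd and Tnip1 (0.980 to 0.989), and for Slc16a3 Whamm, H2-Ab1 and Trim65 (0.970 to 0.995).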

How the data were processed

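RNA was taken from mouse hearts, and stranded libraries of polyadenylated RNA were made, per the labels. The authors mapped reads to GRCm38 with TopHat2 2.0.13 and ran Cuffdiff (Cufflinks 2.2.1). The FPKM it gave for each gene in each library, fragments relative to length and library size, were deposited. How libraries were scaled to each other and whether strand was used are not given in the sources used here. The deposited table also holds group means and the authors' own fold changes, p-values and q-values, and further tables hold enriched terms; none of these was used. Per the labels' protocol 4 libraries were made, while 7 are labelled and were used.

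Values were transformed to log2(FPKM + 1), which understates changes of low genes. The 12391 genes whose mean FPKM reached 1 were kept, and limma 3.58.1 (R 4.3.3, trended prior variance, two-sided) compared TAC + EMPA with TAC, with Benjamini-Hochberg adjustment over all of them and a threshold of 0.05. Exact permutation tests of single genes were two-sided. The paper's methods describe the samples as biologically distinct, and p-values measure the spread between them. Relative depth was read from the FPKM steps of single-exon genes (at least 98.993% of low values within 0.1 of whole fragments). GENCODE M21 gave positions, and RefSeq the promoter windows. In the table, 26 symbols altered by a spreadsheet were restored from the gene ID.

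The 7 genes and the pathway and marker lists were chosen with earlier results of these data known. Named beside them are preset pathway genes, the gene of smallest p in each direction of each list, and the 3 genes most correlated with each tested gene; Acss1, Acss2, Cpt1a, Acat2, Acaa2 and Cs were named after their values were seen. The results of some genes are left out. Alternatives covered pseudocount, filter, scaling, replicate block, library weights, prior variance, threshold, transcript length and each library left out. The gene test was tested on simulated data. Python 3.11.15, pandas 2.3.3 and matplotlib 3.10.9 were used for tables and plots.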

Additional observations from a re-analysis of the deposited data

Results flagged for a closer look

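Within the 4 TAC + EMPA libraries, 3 of 23 genes examined had 1 library set apart. Its gap to the nearest neighbour was a large share of the group's range. Chance alone gives this in about 5% of groups of continuous values, a rate that does not hold for a gene at 0 in most libraries. The genes share the same libraries and are not independent, so the count of 3 is not read as an excess. Oxct1 was low in TAC + EMPA replicate 4, with a gap of 0.876 of the range (647 against 747 to 761 FPKM). Mpc2, a subunit of the mitochondrial pyruvate carrier, was high in the same library, with a gap of 0.831 of the range. Oxct2a was above 0 only in TAC + EMPA replicate 1, so its gap was 1.0 of the range at an FPKM of 0.0140. The TAC group holds 3 libraries and was not examined in this way.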

How the results depend on the processing

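TAC replicate 3 decided the calls. Over all genes, 0 were higher and 0 lower with 7 libraries, 3310 and 2551 with library weights (weight 0.121 for TAC replicate 3), and 0 to 3694 and 0 to 2930 when single libraries were left out, where leaving out any library but TAC replicate 3 gave at most 2 higher and 4 lower. Without the filter 2 were lower. Of the 5 tested genes of ketone use and transport, 4 were higher with library weights and 0 to 3 with single libraries left out. Without TAC replicate 3 and TAC + EMPA replicate 4 together, chosen after seeing the data, 3761 genes were higher and 2957 lower, 4 of the 5 genes among the higher. Oxct1, Slc16a1, Acat1 and Bdh1 kept a positive log2 fold change in each of 18 alternatives, at 0.78 to 1.69, 0.39 to 0.93, 0.16 to 0.37 and 0.34 to 0.80. Not all of these could differ: the prior variance and the filter do not change a fold change. The replicate block gave the same fold changes as leaving out TAC + EMPA replicate 4. The low genes turned sign with libraries left out: Bdh2 ran from -0.28 (without TAC replicate 3) to 0.040 (without TAC replicate 2), Slc16a7 from -0.039 (without TAC replicate 2) to 0.35 (without TAC replicate 3), and Slc16a3 from -0.26 (without TAC replicate 3 and TAC + EMPA replicate 4) to 0.083 (without TAC replicate 2), at 0.0039 without TAC replicate 1. The cause was not tested. Libraries of the same number deviated together only weakly (r = 0.104, 0.0838 and -0.0287 for numbers 1 to 3), so the numbers were not taken as pairs. A replicate block, which leaves TAC + EMPA replicate 4 without a partner and out of the estimate, called 0 genes, with log2 fold changes of 1.15 for Oxct1 and 0.62 for Bdh1 (limma, adjusted p = 0.194 for both). The median of all genes moved by at most 0.05 from 0 in any setting. Depth limits Bdh2, Slc16a3 and Slc16a7 most.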
